A study of Arabidopsis thaliana with 12 samples.

Results

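In high light, 3 libraries of ribosome footprints (RPF) were set against 3 libraries of total RNA from the same experiments, paired by replicate number. These are 6 of the 12 libraries of the series. A gene was compared when it had at least 20 counts in each of the 3 total RNA libraries, which held for 12977 of the 26789 protein-coding genes, 12902 nuclear and 75 plastid-encoded. The plants were Arabidopsis thaliana Col-0, the wild-type reference accession, and whole rosettes were harvested. Plants 3 weeks old had been moved to dim light of 8 µmol photons m-2 s-1 for 10 days, as had the low-light controls. The high-light plants then received 800 µmol photons m-2 s-1 for 10 min before harvest at midday. Each library averages over the cell types of the rosette, so fewer cells of a type and less RNA per cell cannot be told apart.

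A ribosome that is translating covers a short stretch of its mRNA, and RNase digestion leaves that stretch intact. Counting such fragments per gene, relative to the gene's RNA, gives a measure of how many ribosomes its transcripts carry. In leaves, cytosolic ribosomes make the nuclear-encoded proteins, while the chloroplast translates its own genes, among them core subunits of the photosystems, on ribosomes of bacterial type. The measure used here is the log2 ratio of footprint to total RNA CPM, counts scaled to the protein-coding total of the library and normalised between libraries; 0 is the level at which footprints and RNA take the same normalised share. It is relative, and says nothing of how much protein the rosette made in all.

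The 6 libraries differed in depth. Protein-coding genes took 2113252, 1875004 and 1162389 counts in RPF replicates 1, 2 and 3, and 16053563, 11007497 and 6293789 in total RNA. RPF replicate 1 stood apart: rRNA took 84.7% of all its counts, against 4.42% and 8.66% in the others. It also held counts at duplicated loci where RPF replicates 2 and 3 had 0. Among the genes compared, 11 had at least 20 counts in RPF replicate 1 and 0 in both others; they carried 3.91% of its protein-coding counts, and none of them passed the test. The same 11 genes had counts in low-light RPF replicate 1 and 0 in the other 2 low-light RPF libraries. Leaf genes marked the tissue: the summed level of RBCS1A, CAB1, RCA and PSBP-1 was 10300 to 16400 CPM in RPF and 10920 to 18360 CPM in total RNA. These sums alone are CPM of the protein-coding total, not normalised between libraries. Of 5 genes that mark root endodermis, seeds or flowers, the summed counts per library were 0 to 3 in RPF and 4 to 5 in total RNA. PYK10, known from roots, had 43.5 to 60.9 normalised CPM in RPF and 44.6 to 58.5 normalised CPM in total RNA.

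Ribosome load varied widely between genes, and 1400 genes passed the test (edgeR's quasi-likelihood test with the replicate number as a block, Benjamini-Hochberg adjusted p under 0.05). Of the 12977 genes, 905 had higher footprints than total RNA, or 6.97%, and 495 had lower, or 3.81%. With at least a 2-fold difference, 586 were higher (4.52%) and 377 lower (2.91%). Of all calls 64.6% were thus higher; with CPM not normalised between libraries, which moved the median of all genes from -0.03 to 0.24, 1170 were higher and 115 lower, or 91.1% higher. At an unadjusted p under 0.05 there were 3439 genes. Left-out pairs moved the counts to 919 higher and 612 lower without pair 1, 546 and 117 without pair 2, and 592 and 394 without pair 3, and without the replicate block they were 615 and 245. The 3 libraries of each kind did not overlap for 1972 genes with higher footprints (15.2%) and for 1855 with lower (14.3%). The log2 ratios had a median of -0.03, with quartiles at -0.43 and 0.34, and ran from -4.67 to 5.64. Only 4987 of the genes also had at least 20 counts in each RPF library, so most ratios rest on few footprints. Genes whose lowest total RNA count was 20 numbered 160, with a median log2 ratio of -0.27; the 156 genes just outside, with a lowest count of 19, had -0.29. Across the 4987 well-counted genes, the log2 ratios of the pairs correlated at r = 0.63, 0.63 and 0.70, across genes, which are not independent replicates.

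Among the 10 nuclear genes with the highest ratios, CWLP, LRX3, AGP9 and PDF1 encode proteins of the cell wall or cell surface. They had 20.9, 13.4, 11.2 and 10.7 times more footprint than RNA share. The highest of all was LAF3 (AT3G55850, chromosome 3, 20721720 to 20725893, minus strand, TAIR10), which is known from phytochrome A signalling. LAF3 had 687, 97.5 and 468 CPM in RPF replicates 1, 2 and 3, and 4.58, 8.52 and 7.04 CPM in total RNA. All 3 footprint libraries lay above all 3 of total RNA. The log2 ratio of LAF3 was 5.64 (SE 0.54, adjusted p = 5.47e-06). The pair ratios of LAF3 were uneven, at 7.08, 3.44 and 5.96. CWLP (AT3G22120, chromosome 3, 7794957 to 7796310, minus strand, TAIR10) encodes a proline-rich protein linking cell wall and plasma membrane. The footprint libraries gave 462, 841 and 515 CPM for CWLP, and the total RNA libraries 39, 33.7 and 16.6 CPM. Every footprint library exceeded every total RNA library. CWLP came to a log2 ratio of 4.38 (SE 0.32, adjusted p = 4.36e-07).

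AT3G22142, which lies on the same strand not far from CWLP (chromosome 3, 7803604 to 7808046, minus strand, TAIR10), was second in rank. Levels of AT3G22142 were 208, 172 and 108 CPM in footprints and 6.57, 4.16 and 2.92 CPM in total RNA. AT3G22142 thus had a log2 ratio of 5.17 (SE 0.27, adjusted p = 9.42e-09). LRX3 is a leucine-rich repeat extensin that binds to the cell wall. LRX3 stood at 204, 156 and 372 CPM in the footprint libraries and at 22, 11.2 and 19.8 CPM in those of total RNA. The groups did not overlap, with footprints higher. For LRX3 the log2 ratio was 3.74 (SE 0.28, adjusted p = 4.36e-07). AGP9, an arabinogalactan protein of the cell surface, stood at 49.1, 60.3 and 104 CPM in footprints and 8.65, 5.22 and 4.25 CPM in total RNA. Here the log2 ratio reached 3.49 (SE 0.32, adjusted p = 3.61e-06). PDF1, protodermal factor 1, is known as an epidermal gene. PDF1 had 111, 106 and 180.4 CPM in RPF replicates 1, 2 and 3, and 10.4, 10.9 and 15.3 CPM in total RNA. Its 3 pairs gave close ratios, at 3.35, 3.23 and 3.52, and the fitted log2 ratio was 3.42 (SE 0.24, adjusted p = 4.36e-07).

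CCR1, a glycine-rich RNA-binding protein (GRP8) whose RNA follows the circadian clock, was among the 10 highest. The footprint libraries gave 178, 306 and 152 CPM for CCR1, and the total RNA libraries 29.6, 15.4 and 9.83 CPM. The groups did not overlap, and the log2 ratio was 3.60 (SE 0.32, adjusted p = 2.86e-06). AT3G24480 and AT5G15780, without a name in the reference table, had log2 ratios of 3.61 (SE 0.27) and 3.46 (SE 0.25). AT1G72645 was the least even of the 10: its total RNA was 78.1 CPM in replicate 1 and 8.84 and 15.5 CPM in the others, and its pair ratios were 0.99, 5.58 and 4.65. All 10 genes also passed the test when any 1 of the 3 pairs was left out.

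**Figure D1:**
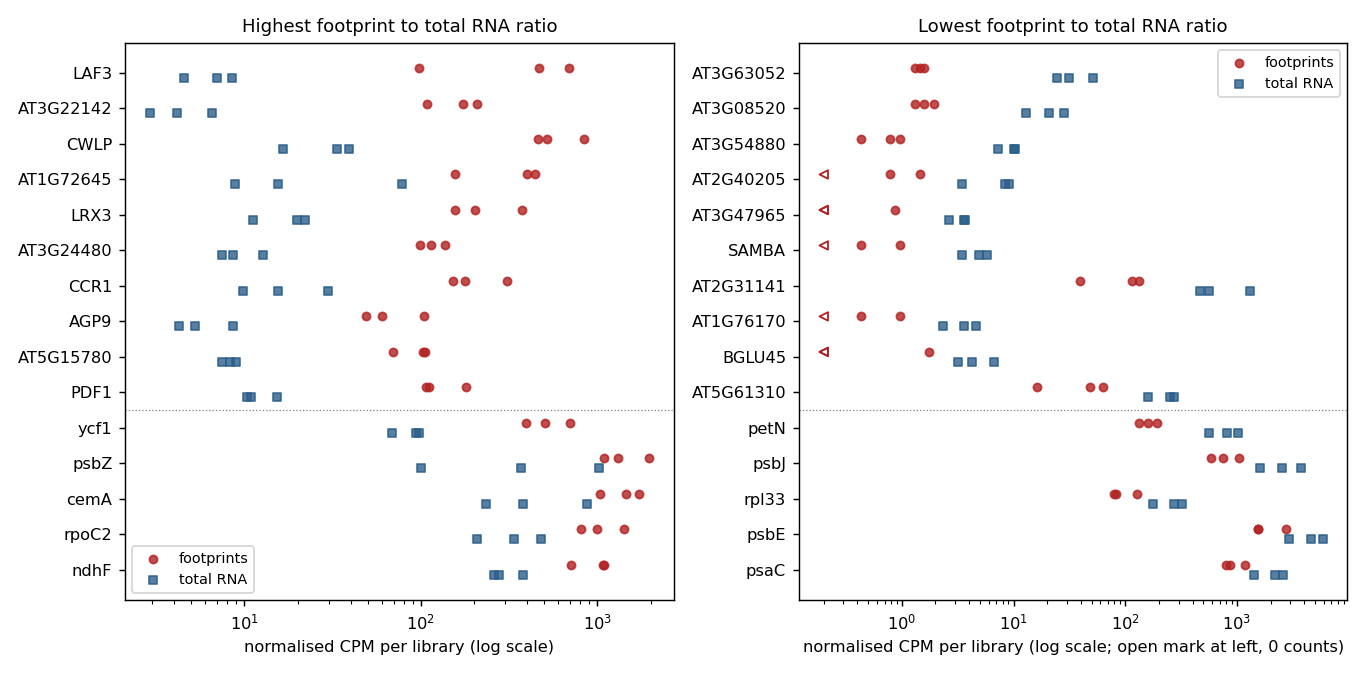
Normalised CPM in each high-light library (x axis, log scale) for the highest (left) and lowest (right) ratios among called genes chosen for groups that do not overlap, pair ratios of 1 sign and at least 100 counts, 10 nuclear above the dotted line and 5 plastid below it; circles are the 3 footprint libraries, squares the 3 total RNA libraries, and open marks at the left edge are libraries with 0 counts. The genes run from LAF3 at a log2 ratio of 5.64 to AT3G63052 at -4.67, and their separation follows from how they were chosen.

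Cell-wall families were then taken by symbol, a choice made after these values were seen. Of 9 arabinogalactan protein genes (AGP), 5 were higher in footprints and 0 lower, with a median log2 ratio of 1.33. Over all genes 6.97% were higher and 3.81% lower, and the median was -0.03. The AGP genes include AGP9, which was already among the highest above. Of 9 fasciclin-like arabinogalactan genes (FLA), 6 were higher and 0 lower, with a median of 1.09. FLA8 was the highest of them. Levels of FLA8 were 190.2, 212 and 233 CPM in footprints and 37.4, 32.8 and 33.9 CPM in total RNA. The fit gave FLA8 a log2 ratio of 2.60 (SE 0.24, adjusted p = 3.99e-06). The proline-rich genes PRP2 and PRP4 were both higher. PRP4 stood at 1069, 1112 and 1082 CPM in the footprint libraries and at 171, 139 and 103 CPM in those of total RNA. With groups far apart, PRP4 had a log2 ratio of 3.01 (SE 0.29, adjusted p = 4.97e-06). Not all wall families shared this. Of 8 expansin genes, which loosen walls, 0 passed in either direction and the median was 0.06; of 13 xyloglucan endotransglucosylase genes, 1 was higher and the median was 0.06. The 6 cellulose synthase genes gave 0 calls at a median of 0.25, and the 5 genes with PME symbols 0 at a median of 0.22. Within the AGP family, AGP21, AGP12 and AGP15 had ratios of -0.51, -0.31 and -0.10 that did not pass.

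At the other end stood short genes and genes with few footprints. AT3G63052, unnamed and spanning 201 bases (chromosome 3, 23298911 to 23299111, minus strand, TAIR10), had the lowest ratio. Its counts were 3, 3 and 2 in footprints and 376, 487 and 186 in total RNA. The log2 ratio was -4.67 (SE 0.37, adjusted p = 8.75e-07). AT3G08520, of 175 bases, had counts of 3, 4 and 2 in footprints and 339, 195 and 98 in total RNA, with a log2 ratio of -3.74 (SE 0.39, adjusted p = 1.27e-05). A further short locus among the 10 lowest that met the naming rule, AT2G40205, spanned 215 bases and had counts of 0, 3 and 1 in footprints and 100, 85 and 26 in total RNA. Fitted ratios on so few footprints depend in part on the prior count of the fit. Genes here were chosen for groups that do not overlap, and 3 loci as low but with fewer counts were passed over.

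The deepest counted of these 10 was AT2G31141. AT2G31141 had 39.1, 132 and 115 CPM in RPF replicates 1, 2 and 3, and 1304, 566 and 462 CPM in total RNA. All 3 footprint libraries lay below all 3 of total RNA. For AT2G31141 the fitted log2 ratio came to -2.97 (SE 0.47, adjusted p = 0.000782). AT5G61310 likewise rested on many counts. The footprint libraries gave 16.1, 63.7 and 48.3 CPM for AT5G61310, and the total RNA libraries 252, 273 and 159 CPM. The log2 ratio there was -2.55 (SE 0.35, adjusted p = 0.00024). SAMBA, a regulator of the anaphase-promoting complex of the cell cycle, had counts of 1, 2 and 0 in footprints and 70, 46 and 26 in total RNA, and BGLU45, a beta-glucosidase known for monolignol glucosides, had 4, 0 and 0 in footprints and 38, 40 and 50 in total RNA. With fewer footprints still, no fitted ratio is given for them. AT3G54880, AT3G47965 and AT1G76170, unnamed, complete the 10 with 2 to 4 footprint counts each over the 3 libraries. Left-out pairs ended some of these calls: 10 of the 10 passed without pair 1, 7 without pair 2 and 8 without pair 3.

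Ratios were higher in longer genes. Nuclear genes were grouped by span, the distance from gene start to end including introns, since protein lengths were not at hand. The 27 genes under 500 bases had a median log2 ratio of -1.00, the 619 genes of 500 to 1000 bases -0.51, and the 2276 genes of 1500 to 2000 bases -0.25. From 2000 to 3000 bases the median of 4205 genes was -0.07, and the 1167 genes of at least 5000 bases had 0.39. Among the latter, 203 were higher and 1 lower; among the genes of 500 to 1000 bases, 36 were higher and 97 lower. All 3 pairs rose from the shortest to the longest class, and pair 2 by most: its medians ran from -1.82 to 0.71, those of pair 1 from -0.28 to 0.27 and those of pair 3 from -0.68 to 0.14. Abundance made less difference, since the median was -0.11 for nuclear genes under 10 CPM in total RNA and 0.05 for those of 30 to 100 CPM.

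**Figure D2:**
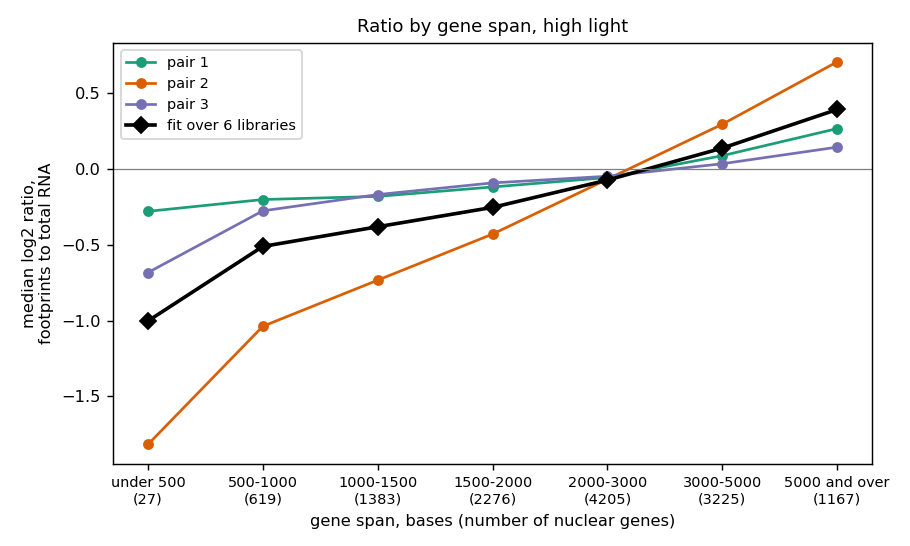
Median log2 ratio of footprints to total RNA (y axis) of nuclear genes by class of gene span in bases (x axis, number of genes in brackets), for each pair of libraries and for the fit over all 6. Every line rises from left to right, and the line of pair 2 is the steepest, from -1.82 to 0.71.

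Ribosomal proteins of the cytosol, the parts of the machine itself, had low footprints for their RNA. Of 102 large-subunit genes that passed the filter (of 105 listed), 25 were lower and 5 higher; of 79 small-subunit genes (of 85), 16 were lower and 0 higher. The medians were -0.59 and -0.57. Over all genes the median was -0.03, with 3.81% lower and 6.97% higher. Among the members lower in footprints was RPL5B, of the large subunit. Levels of RPL5B were 62.5, 64.7 and 58.6 CPM in footprints and 102, 176 and 120.2 CPM in total RNA. No footprint library reached the lowest total RNA library. On the log2 scale RPL5B had a ratio of -1.06 (SE 0.24, adjusted p = 0.0102). AT1G74270 was the lowest of the listed large-subunit loci, and loci outside the list were not ranked here. It had 7.82, 5.79 and 4.75 CPM in footprints and 19.8, 42.4 and 22.4 CPM in total RNA. The log2 ratio of AT1G74270 was -2.12 (SE 0.32, adjusted p = 0.000441). AT3G43980 was the lowest listed locus of the small subunit, at -1.63 (SE 0.40, adjusted p = 0.0162). It was not called without pair 2 or without the replicate block.

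The most abundant members lay closer to 0. RP1 (RPL3A), the most abundant large-subunit gene in total RNA, had 248, 248 and 228 CPM in footprints and 288, 308 and 275 CPM in total RNA; its log2 ratio of -0.27 (SE 0.24, adjusted p = 0.503) did not pass. AT5G20290, the most abundant of the small subunit, was at -0.38 (SE 0.24, adjusted p = 0.326). Of the 5 higher members, AT1G04480 was far above the rest. AT1G04480 stood at 110.3, 420.0 and 422 CPM in the footprint libraries and at 29.1, 44.9 and 20.6 CPM in those of total RNA. The log2 ratio of AT1G04480 was 3.17 (SE 0.37, adjusted p = 4.6e-05). UBQ1, a fusion of ubiquitin to a ribosomal protein, was at 0.87 with an adjusted p of 0.0498, just inside the threshold. Most of these proteins are encoded by several near-identical copies, between which the authors' counting could split reads, so values of single copies are uncertain.

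The difference was largest in pair 2. The large-subunit medians of pairs 1, 2 and 3 were -0.19, -1.34 and -0.27, and the small-subunit medians -0.09, -1.34 and -0.34. Without pair 2 the counts fell to 5 lower and 5 higher of the large subunit, at a median of -0.22, and to 4 lower and 2 higher of the small subunit, at -0.21. Without RPF replicate 1 and its partner they were 37 and 29 lower, and without the replicate block 11 and 6 lower. With CPM not normalised between libraries, 4 lower and 6 higher of the large subunit and 5 lower and 0 higher of the small subunit passed. The genes are also short: at spans of 1000 to 2000 bases the 154 ribosomal genes had a median of -0.55, against -0.28 in 3505 other nuclear genes, and under 1000 bases the 19 ribosomal genes had -0.94, against -0.51 in 627. With the median of equally long nuclear genes taken off, a step chosen after seeing the data, the medians relative to all genes went from -0.55 to -0.28 and from -0.53 to -0.23.

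Of 20 cytosolic translation factors and poly(A)-binding proteins, 2 were higher and 0 lower, with a median of 0.33, beside 6.97% and 3.81% of all genes. EIF4A-2, an RNA helicase of the initiation complex, had 61.6, 118 and 87.8 CPM in footprints and 41.6, 37.8 and 40.8 CPM in total RNA and a log2 ratio of 1.11 (SE 0.24, adjusted p = 0.00837). TCTP, the translationally controlled tumor protein, had 0.86 (SE 0.26, adjusted p = 0.0444). AT5G60390, the most abundant member, had 0.30 (SE 0.26, adjusted p = 0.485). The count was 1 higher without pair 2, without pair 3 or without the replicate block; without pair 1 it was 2 higher and 1 lower at a median of 0.10, and lower calls numbered 2 with limma-voom, 2 with the stricter filter and 3 with none. The 34 nuclear-encoded ribosomal proteins of the plastid gave 2 higher and 0 lower, at a median of -0.10; without pair 1 it was 1 higher and 1 lower. EMB3136 was the highest, at 1.14 (SE 0.22, adjusted p = 0.00334).

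**Figure D3:**
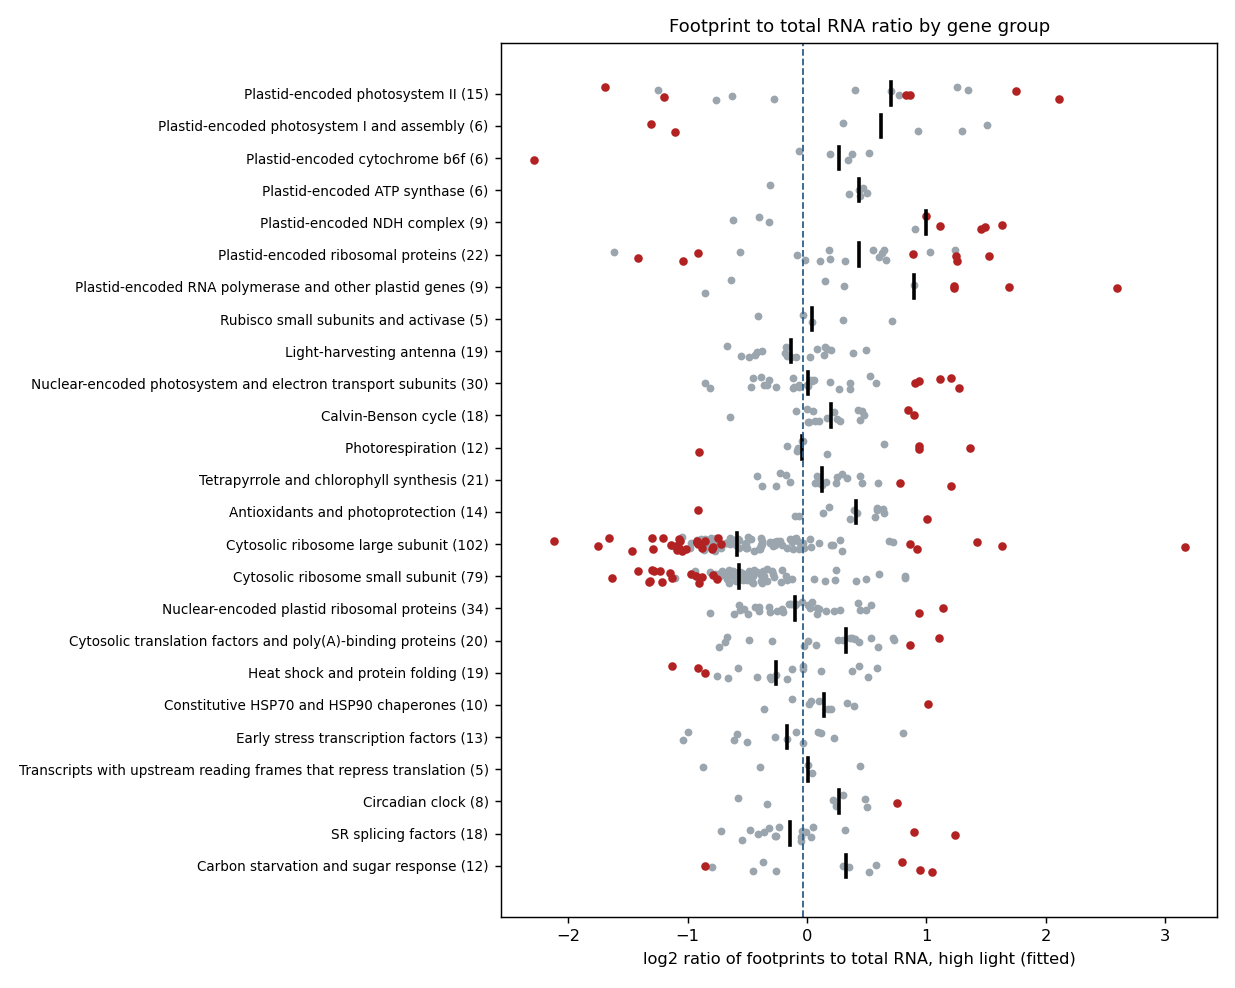
Fitted log2 ratio of footprints to total RNA in high light (x axis) for every gene of each group that passed the filter (number in brackets); red points have an adjusted p under 0.05, black bars are group medians, and the dashed line is the median of all genes, -0.03. The ribosomal protein groups of the cytosol lie furthest left, at -0.59 and -0.57, and the plastid NDH group furthest right of those drawn, at 1.00.

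Plastid-encoded genes took 51.4%, 58.1% and 53.6% of the protein-coding counts in RPF replicates 1, 2 and 3, and 72.6%, 68.9% and 55.6% in total RNA. The means were 54.4% ± 3.41 and 65.7% ± 8.95 (SD, n = 3), and an exact two-sided permutation test gave p = 0.2, where the smallest p that 3 against 3 libraries can give is 0.1. The largest single part of either share was psbA, the gene of D1, the photosystem II subunit turned over fastest in strong light. Its share was 23.4%, 20.9% and 24.5% of RPF and 48.3%, 49.4% and 39.1% of total RNA (exact p = 0.1). The groups did not overlap. Without psbA the plastid share was 40.7% ± 5.57 in RPF and 37.5% ± 9.98 in total RNA (SD, n = 3; exact p = 0.8). In the fit across genes the log2 ratio of psbA was -1.25 (SE 0.65, adjusted p = 0.229), which did not pass.

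Among the 75 plastid loci, 18 were higher and 8 lower, or 34.7% called, against 10.6% of nuclear genes. The plastid median was 0.44, with -0.04, 0.79 and 0.62 in pairs 1, 2 and 3. At the top stood ycf1 (ATCG01130, the plastid genome, 123884 to 129244, minus strand, TAIR10), named in many plants as part of the protein import channel of the inner envelope. ycf1 had 508, 702 and 392 CPM in RPF replicates 1, 2 and 3, and 68.5, 97.3 and 94.3 CPM in total RNA. All 3 footprint libraries lay above all 3 of total RNA. The log2 ratio of ycf1 was 2.60 (SE 0.27, adjusted p = 1.45e-05). Of the 9 genes for the plastid RNA polymerase and other functions, 4 were higher and 0 lower, at a median of 0.90. Without pair 3 the count was 2. Besides ycf1 these were the polymerase subunits rpoC2 (1.69, SE 0.29), rpoA (1.23, SE 0.27) and rpoB (1.23, SE 0.30). cemA, an envelope membrane protein outside these lists, was also high, with 1443, 1710 and 1039 CPM in footprints and 868, 376 and 234 CPM in total RNA. cemA thus had a log2 ratio of 1.70 (SE 0.33, adjusted p = 0.0035), not called without the replicate block. rbcL, the large subunit of Rubisco and the most abundant of this group, had 47150, 43080 and 45920 CPM in footprints and 105500, 87520 and 60070 CPM in total RNA. Its groups did not overlap, but the log2 ratio of -0.86 (SE 0.49, adjusted p = 0.272) did not pass.

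The NDH complex, which feeds electrons back into the thylakoid chain, had a median of 1.00, with 5 of 9 genes higher and 0 lower. Of all 75 plastid loci 18 were higher and 8 lower. The list holds 12 loci, and 3 were left out because the reference table does not type them. ATCG01050 was among those 3, with 16388 footprint and 53221 total RNA counts summed over the libraries. For its subunit ndhF, the footprint libraries gave 1070, 1086 and 708 CPM, and the total RNA libraries 380.4, 276 and 260.0 CPM. Every footprint library exceeded every total RNA library. The log2 ratio was 1.64 (SE 0.27, adjusted p = 0.00104). ndhI (adjusted p = 0.00317) and, by their log2 ratios, ndhE (1.46), ndhG (1.11) and ndhH (1.00) were the others, while ndhJ was at -0.62 and did not pass. The count was 6 without pair 1, 3 without pair 2, 2 without pair 3 and 2 without the replicate block.

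The photosystems were split by subunit, as plastid loci were in general, with 18 higher and 8 lower of 75. In photosystem II 4 of 15 genes were higher and 2 lower, at a median of 0.71. psbZ, a small subunit at the edge of the core, was highest, with 1090, 1953 and 1313 CPM in footprints and 1022, 366 and 100.4 CPM in total RNA; the log2 ratio was 2.11 (SE 0.51, adjusted p = 0.0147). Its total RNA was far higher in replicate 1 than in replicate 3, and the pairs gave 0.09, 2.41 and 3.70. psbT was at 1.75 (SE 0.40, adjusted p = 0.0109). psbJ and psbE, which lie close together on the same strand, were low. The footprint libraries gave 1036, 744 and 586 CPM for psbJ, and the total RNA libraries 3749, 2546 and 1609 CPM. The log2 ratio of psbJ was -1.70 (SE 0.30, adjusted p = 0.00176). psbE, the alpha subunit of cytochrome b559, had -1.20 (SE 0.32, adjusted p = 0.0256). The chlorophyll-binding core subunits psbB, psbC and psbD had 0.40, 1.35 and 1.26 and none of them passed. In this group 8 were higher and 3 lower without pair 1, 1 and 2 without pair 2, and 0 and 1 both without pair 3 and without the replicate block; psbZ and psbE passed in none of the last 3 settings.

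In photosystem I, 0 of 6 genes were higher and 2 lower, beside 18 and 8 of all 75 plastid loci. The list holds 7 loci, and ATCG00360 was left out because the reference table does not type it. psaC, which carries iron-sulfur clusters, had 874, 1186 and 797 CPM in footprints and 2211, 2588 and 1434 CPM in total RNA. The fit gave psaC a log2 ratio of -1.10 (SE 0.29, adjusted p = 0.0227), which was not called without pair 3. psaJ, a small membrane subunit, had -1.31 (SE 0.39, adjusted p = 0.0431), and its groups overlapped. The reaction centre pair psaA and psaB lay on the other side. Levels of psaB were 36480, 45700 and 38280 CPM in footprints and 28390, 14100 and 7037 CPM in total RNA. The groups did not overlap, but the pair ratios were 0.36, 1.70 and 2.44 and the log2 ratio of 1.51 (SE 0.50, adjusted p = 0.061) did not pass. psaA had 1.30 (SE 0.49, adjusted p = 0.0959). Without pair 1, 3 genes of this group were higher and 1 lower; without the replicate block 0 passed.

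Of the 6 plastid genes of the cytochrome b6f complex only petN passed, and it was lower. petN is among the shortest genes of the plastid, at 90 bases. petN stood at 191, 159 and 134 CPM in the footprint libraries and at 1024, 815 and 567 CPM in those of total RNA. All 3 footprint libraries lay below all 3 of total RNA. For petN the fitted log2 ratio came to -2.29 (SE 0.27, adjusted p = 4.47e-05). petB, which carries the haems of cytochrome b6 and was the most abundant, had 0.34 (SE 0.39, adjusted p = 0.609). None of the 6 ATP synthase genes passed, with a median of 0.44; 5 of them lay above 0, and atpH, for the membrane ring, was the exception at -0.31. Among 22 plastid ribosomal protein loci, 4 were higher and 3 lower, at a median of 0.44. All 75 plastid loci together, with 18 higher and 8 lower, also had a median of 0.44. rpl22, which overlaps 1 other locus on its strand and so may lose reads to it, was the highest, with 452, 646 and 342 CPM in footprints and 166, 201 and 125 CPM in total RNA and a log2 ratio of 1.53 (SE 0.25, adjusted p = 0.00088). Without pair 1 the group had 5 higher and 6 lower, and without pair 3 it had 2 and 1. rpl33 (-1.42, SE 0.25), rpl32 (-1.04, SE 0.24) and rps16 (-0.92, SE 0.28) were the lower members.

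Genes of the inverted repeat, a stretch the plastid genome holds in 2 copies, gave no usable ratio. With both copies added, rpl2 had 3029, 0 and 0 counts in RPF replicates 1, 2 and 3 and 562, 815 and 265 in total RNA. rps7 had 1932, 0 and 0 in RPF and 353, 389 and 175 in total RNA. ycf2 had 2765, 0 and 0 in RPF and 223, 188 and 92 in total RNA. Their ratios are therefore uncertain, whatever their fitted values.

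**Figure D4:**
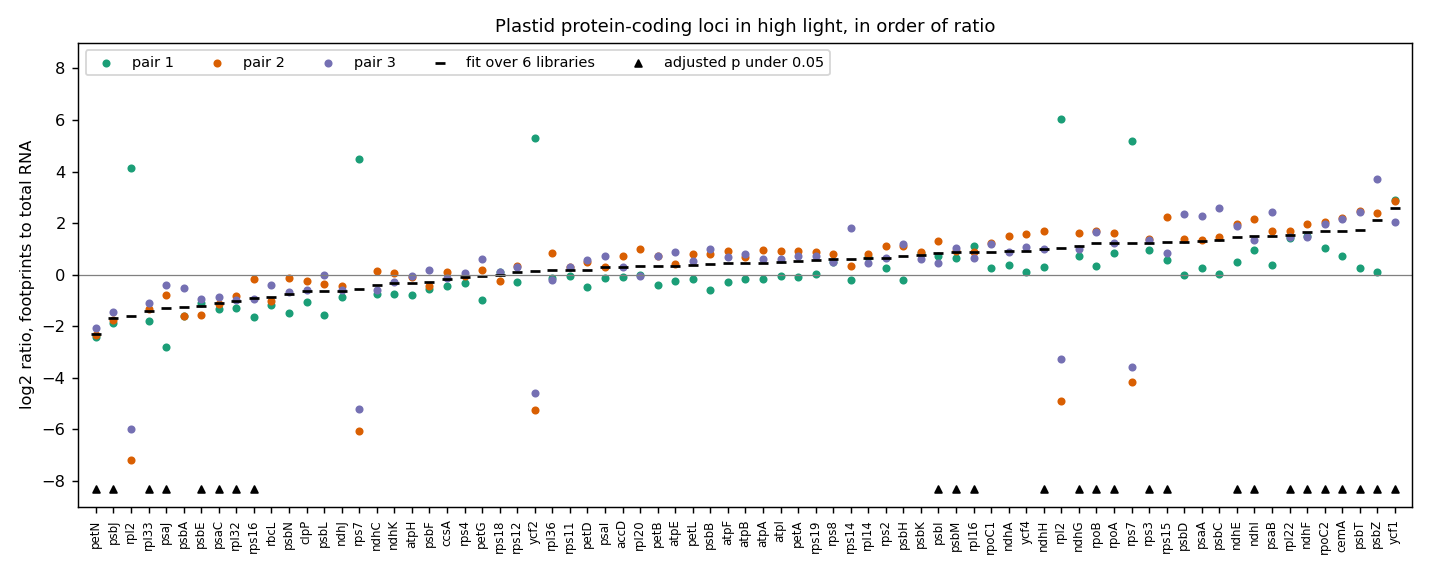
Log2 ratio of footprints to total RNA (y axis) of the 75 plastid protein-coding loci in order of the fitted ratio (x axis); coloured points are the 3 pairs, black dashes the fit over 6 libraries, and triangles mark an adjusted p under 0.05. petN is lowest at -2.29 and ycf1 highest at 2.60, and the loci with points above 4 in pair 1 and below -3 in the others are the inverted-repeat genes rpl2, rps7 and ycf2.

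Nuclear genes for photosynthesis were near the median of all genes when gene span was left aside. None of the 19 light-harvesting antenna genes passed, at a median of -0.13. With the median of equally long nuclear genes taken off, the antenna median relative to all genes went from -0.10 to 0.21. CAB1, the most abundant antenna gene, was the lowest. CAB1 had 7842, 4126 and 6625 CPM in RPF replicates 1, 2 and 3, and 9460, 8814 and 10390 CPM in total RNA. The groups did not overlap, but the log2 ratio of -0.67 (SE 0.36, adjusted p = 0.25) did not pass. None of the 5 genes for the small subunit of Rubisco and its activase passed either; RCA, the activase, was highest at 0.71 (SE 0.30, adjusted p = 0.134). The small-subunit copies share long stretches, and the pair medians of the 5 genes, 0.96, -1.17 and 0.09, differed widely.

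Of 30 nuclear subunits of the photosystems and electron transport, 5 were higher and 0 lower, at a median of 0.01. With the median of equally long nuclear genes taken off, their median relative to all genes went from 0.04 to 0.38. The shares over all genes were 6.97% and 3.81%. Among the 5 higher were 3 subunits of photosystem I: PSAG (1.21, SE 0.28), PSAF (1.11, SE 0.28) and PSAD-1 (0.94, SE 0.27). PSAF, which docks plastocyanin, had 1508, 1266 and 1800 CPM in footprints and 738, 714 and 645 CPM in total RNA. The other two were PSBY, a small subunit of photosystem II, and PDE334, a subunit of the chloroplast ATP synthase. The footprint libraries gave 289, 312 and 476 CPM for PSBY, and the total RNA libraries 134, 146 and 153 CPM. On the log2 scale PSBY had a ratio of 1.28 (SE 0.25, adjusted p = 0.00342). PSBR was the lowest, at -0.85 (SE 0.31, adjusted p = 0.0867). Without pair 3 none of the 30 passed, while leaving out pair 1 gave 5 higher and 2 lower.

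In carbon metabolism, 2 of 18 genes of the Calvin-Benson cycle were higher and 0 lower, at a median of 0.20. Over all genes 6.97% were higher and 3.81% lower. The 2 higher genes were CP12-1, a small regulator of the cycle, at 0.90 (adjusted p = 0.0457), and AT3G60750, listed as a transketolase, at 0.85 (adjusted p = 0.0456). CP12-2 lay at the other end with -0.65 (SE 0.28) and did not pass, and GAPA, the most abundant, had 0.00 (SE 0.26). None of the 18 passed without pair 2, without pair 3 or without the replicate block. Of 12 photorespiration genes 3 were higher and 1 lower, at a median of -0.04. Within the glycine decarboxylase of mitochondria, the P-protein genes GLDP1 and GLDP2 were high and GDCH, an H-protein gene, was low. GLDP1 spans 4663 bases and GDCH 1117, in classes of nuclear genes with medians of 0.14 and -0.38. The part of span in this contrast was not tested. Levels of GLDP1 were 549, 703 and 624 CPM in footprints and 216, 229 and 283 CPM in total RNA. The log2 ratio of GLDP1 was 1.37 (SE 0.26, adjusted p = 0.00282). GLDP2 had 0.94 (SE 0.24, adjusted p = 0.0205) and GDCH -0.90 (SE 0.25, adjusted p = 0.0278). The remaining member was a catalase, CAT2 (AT4G35090), at 0.94 (SE 0.24). Without the replicate block 1 of the 12 passed, GLDP1, and GDCH did not pass without pair 2 either.

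Of 21 genes of tetrapyrrole synthesis, the path to chlorophyll, 2 were higher and 0 lower, at a median of 0.13; over all genes 10.8% were called. GUN4, which activates magnesium chelatase, was highest. GUN4 stood at 32.1, 83.5 and 95.8 CPM in the footprint libraries and at 13.6, 35.7 and 42.8 CPM in those of total RNA. Its groups overlapped, while the pairs were even, at 1.21, 1.22 and 1.15, and the log2 ratio was 1.21 (SE 0.21, adjusted p = 0.00181). GSA1, of an early step of the pathway, had 0.78 (SE 0.22). Of 14 antioxidant and photoprotection genes 1 was higher and 1 lower, at a median of 0.41. 2-Cys Prx B, a chloroplast peroxiredoxin, had 46, 48.3 and 48.3 CPM in footprints and 24.4, 22.9 and 23.8 CPM in total RNA. The log2 ratio of 2-Cys Prx B was 1.00 (SE 0.21, adjusted p = 0.00641). CSD1, the cytosolic copper/zinc superoxide dismutase, had 74.2, 47.8 and 71.2 CPM in footprints and 114, 147 and 101 CPM in total RNA, with a log2 ratio of -0.91 (SE 0.26, adjusted p = 0.034). CSD1 did not pass without pair 2, without pair 3 or without the replicate block, and GUN4 did not pass without that block.

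Of 27 heat-shock and folding genes 19 passed the filter. Of these 0 were higher and 3 lower, beside 6.97% and 3.81% of all genes, at a median of -0.26. Relative to all genes this median was -0.22, and it was -0.02 with the median of equally long nuclear genes taken off. MBF1C, a heat-responsive coactivator, was the lowest. MBF1C had 66, 41.5 and 82.3 CPM in RPF replicates 1, 2 and 3, and 97.4, 149 and 166 CPM in total RNA. No footprint library reached the lowest total RNA library. MBF1C thus had a log2 ratio of -1.13 (SE 0.27, adjusted p = 0.0124). HSFA7A, a heat shock factor, had -0.91 (adjusted p = 0.0469) and AT1G59860, unnamed in the reference table, had -0.86 (adjusted p = 0.0249), both with overlapping groups. HSP70, the most abundant, had 0.44 (SE 0.25, adjusted p = 0.27). Without pair 2, or with CPM not normalised between libraries, 0 of the 19 passed, and without the replicate block 1 did. Without pair 1 there were 1 higher and 3 lower, and with no filter 2 higher and 5 lower of 26. Among 10 constitutive chaperones 1 was higher, Hsp70-2 at 1.02 (SE 0.30), which did not pass without pair 1 or without the replicate block, and HSC70-1, the most abundant, was at 0.04 (SE 0.29).

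None of 13 early stress transcription factors passed, at a median of -0.17. With the median of equally long nuclear genes taken off, their median relative to all genes went from -0.13 to 0.11. The range ran from ERF5 at -1.04 (SE 0.50) to JAZ1 at 0.80 (SE 0.27, adjusted p = 0.0655). ERF5 had only 6, 2 and 3 footprint counts. Just 4 of the 13 genes had at least 20 counts in each RPF library, so a difference could easily be missed. The list of transcripts with conserved upstream reading frames that repress translation was barely measured, with 5 of 22 past the filter and 0 called. VTC2, of vitamin C synthesis, had 0.01 (SE 0.23). Of the 17 others, 14 had 0 counts in all 6 libraries, and each of those 14 shares bases with another locus on its strand.

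For the next 3 groups, the shares over all genes were 6.97% higher and 3.81% lower. Of 8 clock genes 1 was higher, GI, at 0.75 (SE 0.23, adjusted p = 0.0467). GI did not pass without pair 2, without pair 3 or without the replicate block. Among 18 SR splicing factors 2 were higher and 0 lower, but the median was -0.14 and 13 had ratios below 0. The higher ones were SR45 and, at 0.89 (SE 0.26), SR34a. SR45 had 30, 25.6 and 20.6 CPM in footprints and 11.3, 11 and 9.96 CPM in total RNA. Its log2 ratio was 1.24 (SE 0.24, adjusted p = 0.00315). SR45a, the most abundant, was the lowest at -0.72 (SE 0.25, adjusted p = 0.0714) and did not pass. Of 12 genes of carbon starvation and sugar response 3 were higher and 1 lower, at a median of 0.33. TPS10, a trehalose phosphate synthase family member, had 67.3, 95.6 and 74.4 CPM in footprints and 38.4, 37.2 and 37.9 CPM in total RNA. The fit gave TPS10 a log2 ratio of 1.05 (SE 0.22, adjusted p = 0.00641). TPS9 (0.80) and AKINBETA1 (0.94), a subunit of the SnRK1 energy-sensing kinase, were the others, and SEN1, induced in the dark, was lower at -0.86 (SE 0.25, adjusted p = 0.0351) but did not pass without pair 2 or without the replicate block. Without pair 1 the group had 1 higher and 1 lower.

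Among genes that could be compared in both lights, those with high or low ratios mostly had them without the light step too. In 7436 genes that also met the filter in low light, the log2 ratios of the lights correlated at r = 0.88, across genes. That filter left out LAF3 and all 19 heat-shock and folding genes, and kept 4 of the 13 early stress transcription factors. Of the genes higher in high light and compared in both, 716 in all, 715 had a positive ratio in low light and 506 passed there; of 313 lower genes, 310 had a negative ratio and 189 passed. In the test of the difference, footprint to total RNA ratio in high against low light over 12 libraries, 0 of 7436 genes passed with edgeR (0%), and 103 had an unadjusted p under 0.05 (1.39%). DESeq2 also gave 0, with 73 at an unadjusted p under 0.05. The lowest p belonged to LHB1B1, an antenna gene of photosystem II. Its log2 ratio was -0.13 (SE 0.30) in high light and -1.38 (SE 0.24) in low light, a difference of 1.20 (SE 0.32, adjusted p = 1).

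NRAMP1, a metal transporter, was at 0.62 in high light and -0.69 in low light, a difference of 1.26 (SE 0.37, adjusted p = 1). CBL10, a calcium sensor, was at -1.32 and 0.21, a difference of -1.58 (SE 0.47, adjusted p = 1). The unnamed AT5G35910 and AT2G14910 differed by -1.07 (SE 0.32) and 0.91 (SE 0.28). psbA was at -2.52 (SE 0.26) in low light and at -1.25 (SE 0.65) in high light, a difference of 1.22 (SE 0.54, adjusted p = 1). The medians of the cytosolic ribosomal proteins, over the same genes, were -0.59 and -0.58 in high light and -0.67 and -0.75 in low light for the large and the small subunit. Those of the NDH genes were 1.00 and 1.54, and those of the antenna -0.13 and -0.57. These group differences were not tested.

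**Figure D5:**
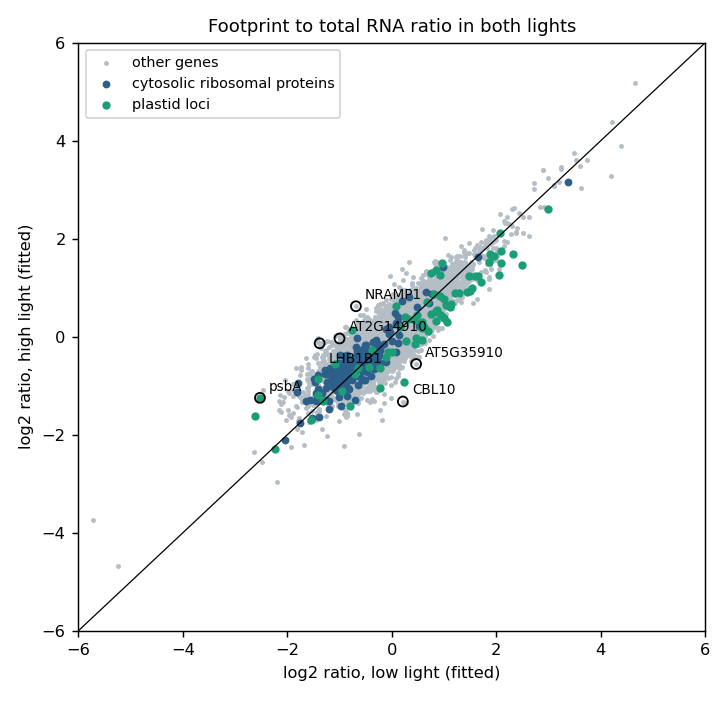
Fitted log2 ratio of footprints to total RNA in high light (y axis) against low light (x axis) for 7436 genes, with cytosolic ribosomal proteins in blue, plastid loci in green and ringed points for psbA and the 5 genes of lowest p; the line marks equal ratios. Points follow the line from AT3G63052 at the lower left to AT3G22142 at the upper right, and no gene passed the test of the difference.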

How the data were processed

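The deposited files hold raw counts per gene, made by the authors with featureCounts 1.5.0-p1, per the file headers, over the whole gene span, on the sense strand, from Bowtie2 alignments for footprints and subjunc alignments for total RNA. The genome was TAIR10, and Subread 1.4.5, Bowtie2 2.2.9 and cutadapt 1.9.1 were used, per the submitters' processing notes. Introns and untranslated parts were thus counted, and total RNA libraries had been depleted of rRNA, per the labels' protocols. Positions are those of the deposited files, and symbols and gene types were taken from a RefSeq table of assembly TAIR10.1. Loci the table does not type, the mitochondrial ones among them, were not used here.

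Counts of protein-coding genes with at least 20 counts in each total RNA library were fitted with edgeR 4.0.16 in R 4.3.3 (TMM normalisation, quasi-likelihood test, replicate number as a block, Benjamini-Hochberg adjustment over all genes, threshold 0.05). Except for the summed leaf genes, and where stated otherwise, CPM are normalised by TMM, and pair ratios add 0.5 CPM to both values. Same-numbered libraries carry 1 experiment name in the file headers, and their deviations from the group means correlated at 0.32, 0.10 and 0.36 over 4987 genes, against -0.32 to 0.02 between different numbers. Nothing in the labels says that replicates are separate batches of plants, so p-values measure the spread between these libraries. The difference between lights was fitted over 12 libraries with an interaction term. DESeq2 1.42.0 and limma 3.58.1 served as alternatives. The steps were tested on simulated counts.

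Members and lists were chosen with earlier results of these data known. The named genes are, among calls without overlap, with 3 pair ratios of 1 sign and at least 100 counts over 6 libraries, the 10 highest and 10 lowest nuclear and the 5 highest and 5 lowest plastid ratios; the extremes and most abundant member of each list; and the 5 lowest p between lights. Other genes in the text were chosen after their values were seen. Gene lists came from textbook knowledge; 1 large-subunit locus was left out because the reference table gives it the name of another gene.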

Additional observations from a re-analysis of the deposited data

How the results depend on the processing

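Against 905 higher and 495 lower genes, the stricter filter that also asks for 20 counts in each RPF library gave 556 and 294, and the filterless fit 1231 and 939. Lower genes numbered 245 without the replicate block, 180 with DESeq2 and the block, and 115 with CPM not normalised between libraries; their higher counts, 615, 643 and 1170, were within 1.5 times. Leaving out 1 pair gave 546 to 919 higher and 117 to 612 lower. Without the genes counted in RPF replicate 1 alone, chosen after seeing the data, the counts were 952 and 542. limma-voom gave 1095 and 338. The difference between lights had 7 calls in the filterless fit of 22665 genes and 0 in each other setting run. The plastid share of footprints less that of total RNA, -11.3 percentage points, was 3.15 without psbA and -16.0 to -6.40 with 1 pair left out. No called ratio of a named gene changed its sign in any setting run. The 102 named genes include many that were not called in the main fit and so could not leave the calls. Of the called ones, 14 left the calls without the replicate block, 2, 13 and 9 without pairs 1, 2 and 3, and 8 without normalisation. The causes were not tested, beyond the fewer genes or libraries that a filter or a left-out pair brings. Ratios per coding base were not run, since coding lengths were not at hand. Of the 12977 genes, 7990 had under 20 counts in some RPF library, which limits the precision of their ratios.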

Other observations

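The footprint libraries also held loci outside the comparison. Mitochondrial loci, which the reference table does not type, took 0.59%, 6.30% and 5.19% of all counts in RPF replicates 1, 2 and 3, and tRNA loci took 1.63%, 6.51% and 19.6%. Both shares were lowest in replicate 1, where rRNA took 84.7%.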
